A study of Xenopus tropicalis with 52 samples.

Results

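Kinesins, tubulins and the proteins that assemble the spindle and the centrosome were followed through cleavage, blastula and early gastrula stages of the frog *Xenopus tropicalis*. The genes were taken by a rule on symbols. No measured value entered the rule, although it was set with earlier results of these data known. They were all genes in the count tables named *kif*, *kifc*, *kifap3*, *tuba*, *tubb*, *tubg*, *stmn*, *haus* or *cep*, together with *tpx2*, *ckap2*, *ckap5*, *tacc1* to *tacc3*, *prc1*, *numa1* and *incenp*. This gave 97 of the 22571 genes measured, of which 94 were in both tables. *kifc2* and *stmn3* were listed in Series 1 and 2 only, and *stmn4* in Series 3 only. They were sorted into groups by symbol, with the mitotic kinesins taken from a fixed list. The groups were 8 alpha tubulins, 6 beta tubulins, 1 gamma tubulin, 13 mitotic kinesins and 26 other kinesins, *kifap3* among them. The rest were 12 spindle assembly proteins and microtubule regulators, 8 subunits of augmin and 23 centrosomal proteins, a group that holds every *cep* gene.

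The 52 RNA-seq libraries were made from pools of whole embryos, and the labels name no strain, treatment or mutation. Series 3, from 1 female, gave 19 polyA+ libraries every 0.5 h from 0 to 9.0 h post fertilisation (hpf). It also gave 9 Ribo-Zero libraries, in which ribosomal RNA was removed and RNA with or without a poly(A) tail was kept, at each whole hour up to 8.0 hpf. The Ribo-Zero libraries came from the same RNA as the polyA+ libraries of those hours. Series 2 covered 2.5 to 9.5 hpf in 17 polyA+ libraries, 2 of them at 4.5 hpf and 2 at 6.5 hpf, and Series 1 gave 7 polyA+ libraries from 0 to 3.0 hpf, each from another female. The Series 3 frogs were of another colony, its pools were smaller, its libraries were made with another kit and read on another sequencer, and its embryos developed more slowly. Outside the repeated times of Series 2 each time point was 1 library. Time points therefore took the place of replicates, and every p-value measures the spread between these samples only.

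Microtubules are polymers of alpha and beta tubulin, nucleated from complexes built on gamma tubulin. Kinesins are motors that walk along them or take them apart, and in mitosis they push the spindle poles apart, align the chromosomes and organise the midzone from which the cell is cut. Augmin places gamma tubulin on existing microtubules, and centrosomal proteins build the centrioles and the material around them. A frog egg loads messages for this machinery during oogenesis and runs its cleavage divisions with little new transcription. Translation of many stored messages is set by lengthening or shortening of the poly(A) tail, so a polyA+ read count depends on the amount of a message and on its tail, while a Ribo-Zero read count follows the amount. In whole embryos, fewer cells of a type and less RNA per cell cannot be told apart.

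Library totals without ribosomal reads were 4501986 to 17981208 in Series 3 polyA+, 3855873 to 12746956 in Ribo-Zero, 22660266 to 33783887 in Series 2 and 18595967 to 24206938 in Series 1 libraries. Levels are given as normalised reads, which are counts divided by this total and multiplied by 25000000. A gene with 0 counts could still lie at up to 3 counts, which was at most 16.7 normalised reads in Series 3 polyA+, 19.5 in Ribo-Zero, 3.31 in Series 2 and 4.03 in Series 1 libraries. Such floors cover counting error only. Between the 2 samples of Series 2 at 4.5 hpf, 73 of 77 members with at least 100 reads lay within 1.5-fold of each other, and 74 of 78 did so at 6.5 hpf. The farthest apart was *stmn1*, which encodes the tubulin-binding destabiliser stathmin, at 902 and 149 reads at 4.5 hpf and 489 and 99.8 reads at 6.5 hpf. In Series 3 polyA+ the library at 2.0 hpf stood over 1.5-fold above both of its neighbours in 11 of 69 members (15.9%, against 6.30% of all genes). The library at 1.5 hpf lay over 1.5-fold below both in 12 members (17.4%, against 11.7% of all genes). Both touch the early courses below, and each fit was repeated without each time point. As a check of the time labels, the mesodermal gene *t* was at 0 reads at 2.5 to 4.0 hpf and at 12819.9 to 16510.2 reads at 8.0 to 9.5 hpf in Series 2.

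The first 3 h after fertilisation were compared between the clutches, as the change of polyA+ reads per hour from 0 to 3.0 hpf. The mitotic kinesin messages *kif11*, *kif2c*, *kif4a* and *kif22* lost polyA+ reads in both clutches, as did the spindle proteins *tacc3*, *ckap5* and *incenp*. Over the same hours *kifc3*, *kif9*, *kif3b*, *prc1*, *tacc1* and the alpha tubulins *tuba4a* and *tuba4b* gained polyA+ reads in both. Of 81 members tested with edgeR, 16 rose and 26 fell in Series 3, while 24 rose and 24 fell in Series 1 (adjusted p under 0.05). Among all 11227 genes tested, 18.6% rose and 20.9% fell in Series 3, and 24.6% rose and 26.7% fell in Series 1. The members' share of falls in Series 3 was above that of all genes, and their other shares were closer to it. This excess was not tested. Mitotic kinesins as a group had 3 rises and 6 falls of 13 in Series 3 and 5 rises and 5 falls in Series 1. All 16 that rose in Series 3 also rose in Series 1, where they made up 66.7% of the rises. Both clutches shared 17 falls, which were 65.4% of those in Series 3 and 70.8% of those in Series 1. Scaling by library total alone gave 22 rises and 20 falls in Series 3 and 41 rises and 15 falls in Series 1. Of the 11227 genes it gave 2831 rises and 1395 falls in Series 3, and 4254 rises and 1125 falls in Series 1. With that scaling the median of all genes in Series 1 was 0.22 log2 per hour, against -0.04 in the fit above.

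Eg5, the kinesin-5 encoded by *kif11*, pushes spindle poles apart. Its polyA+ level was 33014, 22444, 17476, 15094, 9473, 6992 and 4813 normalised reads at 0, 0.5, 1.0, 1.5, 2.0, 2.5 and 3.0 hpf in Series 3. In Series 1 the same times gave 26740.0, 23104, 20634, 10087, 8071, 9449 and 7862 reads. Series 3 fell at every step, and Series 1 fell up to 2.0 hpf and then varied little, with slopes of -1.02 ± 0.10 log2 per hour in Series 3 (SE, adjusted p = 3.87e-05, edgeR) and -0.92 ± 0.10 in Series 1 (adjusted p = 9.46e-06). *kif2c* encodes a kinesin that dismantles microtubule ends. It had 31109.6, 19173, 17961, 15427, 13295, 11915 and 10267 reads in Series 3 and 12017, 10600.4, 12628, 6787, 5615, 3175 and 2701 reads in Series 1. Its slope was -0.59 ± 0.09 in Series 3 and -1.07 ± 0.10 in Series 1, a fall in each clutch that was steeper in Series 1. The partner of the microtubule polymerase, *tacc3*, had 57987, 53949, 39891, 36086, 26104, 19983 and 18116 reads in Series 3 and 25301, 23091, 27254, 14078, 12239, 9979 and 7962 reads in Series 1. It fell at -0.73 ± 0.10 and -0.89 ± 0.10 log2 per hour in Series 3 and Series 1.

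The polymerase itself, *ckap5*, fell at -0.58 ± 0.11 log2 per hour in Series 3 and -0.70 ± 0.11 in Series 1. *incenp*, the scaffold of the chromosomal passenger complex, had 98822, 45622, 37943, 27179.7, 40182, 30201 and 30188 reads in Series 3 and 109459, 73159.7, 67736, 57812, 55938, 42501 and 45119 reads in Series 1. It lost polyA+ reads at -0.58 ± 0.09 and -0.67 ± 0.09 log2 per hour in Series 3 and Series 1, with the library at 2.0 hpf in Series 3 above its neighbours. *cep63* and *cep135*, which serve centriole duplication and the centriolar cartwheel, fell at -1.11 and -0.97 in Series 3 and at -0.89 and -1.22 in Series 1. Centrosomal genes as a group had 3 rises and 11 falls of 21 tested in Series 3 and 5 rises and 9 falls in Series 1, where library total alone turned the balance to 7 rises and 6 falls.

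Another set of falls was concentrated in the first 0.5 h of Series 3. The chromokinesin *kif4a*, which organises chromosomes and the midzone, had 4398, 265, 199.6, 88.9, 304, 115 and 70.9 reads in Series 3, against 6719, 7003, 6541, 3014, 3056, 3115 and 2500.2 reads in Series 1. It was down over 10-fold in Series 3 by the second library and held its level over the first 3 libraries of Series 1. The slopes were -1.83 ± 0.29 in Series 3 and -0.82 ± 0.30 in Series 1 (adjusted p = 0.000432 and 0.0334). *kif7*, a kinesin of Hedgehog signalling at the cilium tip, had 1910.0, 59.3, 41.9, 19.2, 46.7, 22.2 and 12.9 reads in Series 3, against 2957, 2186, 2571, 1544, 1606, 2054 and 1940.1 reads in Series 1, and a Series 3 slope of -2.49 ± 0.35. *cep85* encodes a centrosomal protein, and its message had 12120.4, 531, 518, 76.9, 1148, 253 and 342 reads in Series 3, against 14642, 8861, 10316, 6584, 7067, 6128 and 6817 reads in Series 1. *tpx2*, which activates Aurora A and nucleates microtubules near chromosomes, had 11999, 1715, 1009.9, 360.3, 2032, 505 and 625 reads in Series 3, against 15252, 43805, 22705, 36096, 21767, 19224 and 14048 reads in Series 1. For each of these the Series 3 library at 2.0 hpf rose above its neighbours after a low at 1.5 hpf, as *kif22* did, a chromokinesin with 16386, 3914, 2414, 978, 3668, 1187 and 1383 reads and a slope of -1.14 ± 0.20 in Series 3.

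These steep Series 3 falls lean on the library at 0 hpf to unequal degrees. Without it the slope of *kif4a* was -0.69, against -1.83 with it, and it was still past the threshold. The same held for *kif7*, at -0.83 against -2.49, *kif22*, at -0.69 against -1.14, and *incenp*, at -0.38 against -0.58. The slope of *tpx2* was -0.63, against -1.33, and that of *cep85* -0.32, against -1.62, and neither was past the threshold any longer. *ckap2*, a spindle protein, lost its fall of -0.29 in the same way, at -0.14. In Series 1 *tpx2* sloped at -0.58, not past the threshold. The Series 1 falls of *kif4a* and *kif22* (-0.65) were lost without 0.5, 2.0, 2.5 or 3.0 hpf, at slopes of -0.71 for *kif4a* and -0.55 for *kif22* in the nearest to 0 of these, and that of *tubb* (-0.36) was lost without 2.5 hpf, at -0.29, and with library total alone, at -0.10. Library total alone also brought the Series 1 slopes to -0.56 for *kif4a* and -0.38 for *kif22*, both no longer past the threshold, and to -0.42 for *ckap5*, -0.41 for *incenp* and 0.53 for *kif23*.

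Gains of polyA+ reads were led by *kifc3*, a kinesin-14 that moves towards minus ends. It had 20.2, 17.4, 62.1, 142, 216, 311 and 399.7 reads in Series 3 and 46.1, 30.9, 221, 406, 874, 1781 and 2156 reads in Series 1. The slopes were 1.48 ± 0.21 in Series 3 (adjusted p = 0.00025) and 1.86 ± 0.20 in Series 1 (adjusted p = 1.15e-05), the steepest rise in each clutch. *kif9*, a kinesin of motile cilia, had 14.4, 41.9, 40.3, 45.6, 56.4, 257 and 245 reads in Series 3 and 39.2, 30.9, 68.2, 152, 245, 336 and 531 reads in Series 1, with slopes of 1.17 ± 0.20 and 1.15 ± 0.19. *kif3b*, a subunit of the kinesin-2 motor of cilia, had 373, 422, 601, 925, 911, 1800.5 and 2740.0 reads in Series 3 and 705, 524, 1086, 1853, 3165, 4718 and 5742 reads in Series 1. It rose at 0.85 ± 0.10 log2 per hour in Series 3 and 0.94 in Series 1.

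Among proteins of late mitosis, *prc1*, which crosslinks midzone microtubules, had 784, 1317, 2080.1, 3211, 3118, 4529.7 and 4687 reads in Series 3 and 544, 398, 988, 1238, 2056, 2191 and 2678 reads in Series 1. It rose at 0.72 ± 0.13 in Series 3 and 0.65 ± 0.13 in Series 1. *kif23*, a kinesin of the same midzone and of cytokinesis, rose at 0.28 ± 0.06 in Series 3 and 0.28 ± 0.06 in Series 1, slopes that nearly matched. *kif20a*, which works there too, rose at 0.22 ± 0.07 and 0.59 ± 0.07, and *kifc1*, a minus-end kinesin that bundles spindle microtubules, at 0.29 ± 0.09 and 1.08 ± 0.10, in Series 3 and Series 1. The Series 3 rise of *kif20a* was lost without 0.5, 2.5 or 3.0 hpf, at 0.17 in each case. That of *kifc1* was lost without 0, 2.5 or 3.0 hpf, at 0.23 to 0.28. *tacc1* rose at 1.25 ± 0.24 and 0.76, and *tuba4b*, an alpha tubulin, at 0.57 and 1.23 ± 0.18, in Series 3 and Series 1. The centrosomal linker gene *cep68* rose in Series 1 at 1.18 ± 0.18, with 48.4, 33.6, 75.6, 119.8, 309, 427 and 621 reads. *tubb3*, a beta tubulin known from neurons, fell in Series 1 at -1.39 ± 0.22, from a level of only 7.32 to 66.8 reads.

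**Figure D1:**
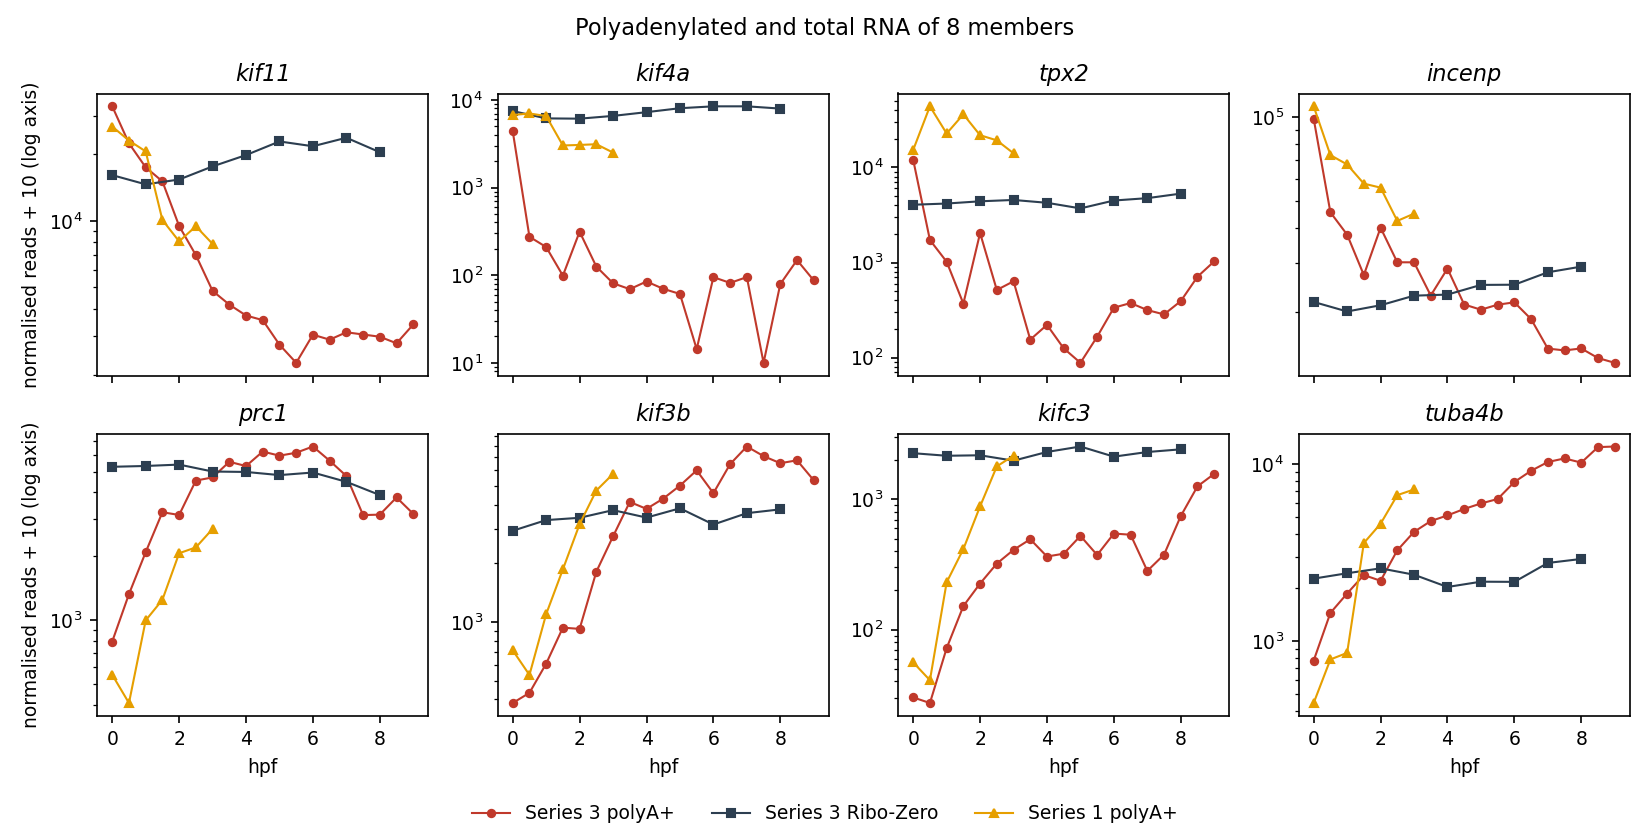
Normalised reads plus 10 (log axis) by hpf for 8 members, in Series 3 polyA+ (red circles), Series 3 Ribo-Zero (dark squares) and Series 1 polyA+ libraries (orange triangles), each point 1 library. PolyA+ reads of *kif11*, *kif4a*, *tpx2* and *incenp* fell early in Series 3 and those of *prc1*, *kif3b*, *kifc3* and *tuba4b* rose, while the Ribo-Zero line of each stayed within 1.5-fold over 0 to 3 hpf.

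Other core members moved less. The kinesin-1 heavy chain *kif5b*, which carries cargo along microtubules, sloped at -0.17 in Series 3 and -0.43 in Series 1, past the threshold in each. The Series 3 slope of *kif5b* was lost without 1.0, 2.0 or 3.0 hpf, at -0.17 to -0.15, and with library total alone, at -0.06, a scaling that gave -0.17 in Series 1. *cep57*, a pericentriolar protein, fell in Series 3 (-0.36) but this was lost without 0, 1.0, 2.0 or 3.0 hpf, at -0.40 to -0.33, and its Series 1 slope was -0.00. Slopes that did not pass in either clutch were, in Series 3 and Series 1, -0.04 and 0.07 for *kif18a*, a kinesin-8 that aligns chromosomes, -0.11 and 0.44 for *numa1*, which focuses spindle poles, and 0.12 and 0.14 for *stmn1*. The same held for *tubg1*, the gamma tubulin, at -0.49 and -0.24, and for *tuba1b*, an alpha tubulin, at 0.06 and 0.09. *tubb* was not past the threshold in Series 3 (-0.24), and *haus1*, an augmin subunit, had too few reads to be tested.

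The slopes themselves differed between the clutches in 11 of 81 members, with 3 higher and 8 lower in Series 3 (3.53% and 3.95% of all genes; edgeR, 14 libraries). *kif27*, a kinesin related to *kif7*, had 15.9, 5.78, 3.35, 0, 0, 0 and 0 reads in Series 3, against 62.2, 113, 124, 231, 323, 393 and 564 reads in Series 1. It had a Series 3 slope of -2.73 ± 0.37, on 11, 4, 2 and then 0 counts, and gained reads at every step in Series 1, a difference in slope of -3.49 ± 0.39 log2 per hour (adjusted p = 0.000601). The difference was -2.05 ± 0.46 for *kif7* (adjusted p = 0.0239), but -0.41 and not past the threshold without 0 hpf. *kifc1* had 1371, 1316, 1782, 2229, 2008, 2827 and 2891 reads in Series 3, against 276, 207, 624, 839, 1524, 2214 and 3474 reads in Series 1, so that Series 3 began higher and rose less (-0.80 ± 0.13, adjusted p = 0.00632). *kif20b*, a kinesin of cytokinesis (-0.58 ± 0.12), *kif20a* (-0.38), *kif15*, a kinesin-12 of the spindle (-0.50) and *cep68* (-0.90) were lower in Series 3 too, and *kif2c* (0.48), *cep76* (0.35) and *kif19*, a depolymerising kinesin of cilia (0.58), were higher. Of the 10 named here, *kif27*, *kifc1* and *kif20b* stayed past the threshold under all 11 alternatives run. *kif27*, however, met the count filter through Series 1, where it was high, and lay near the floor in Series 3. Leaving out 1 time point gave 0 to 2 higher and 4 to 8 lower members, against 6 to 670 and 150 to 552 of 11198 to 11324 genes. Scaling by DESeq2 size factors gave 1 higher and 8 lower, and library total alone gave 0 higher and 9 lower. Of 11227 genes these gave 228 and 443, and 72 and 584. Female, colony, kit and developmental rate differ together between these series and cannot be told apart.

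**Figure D2:**
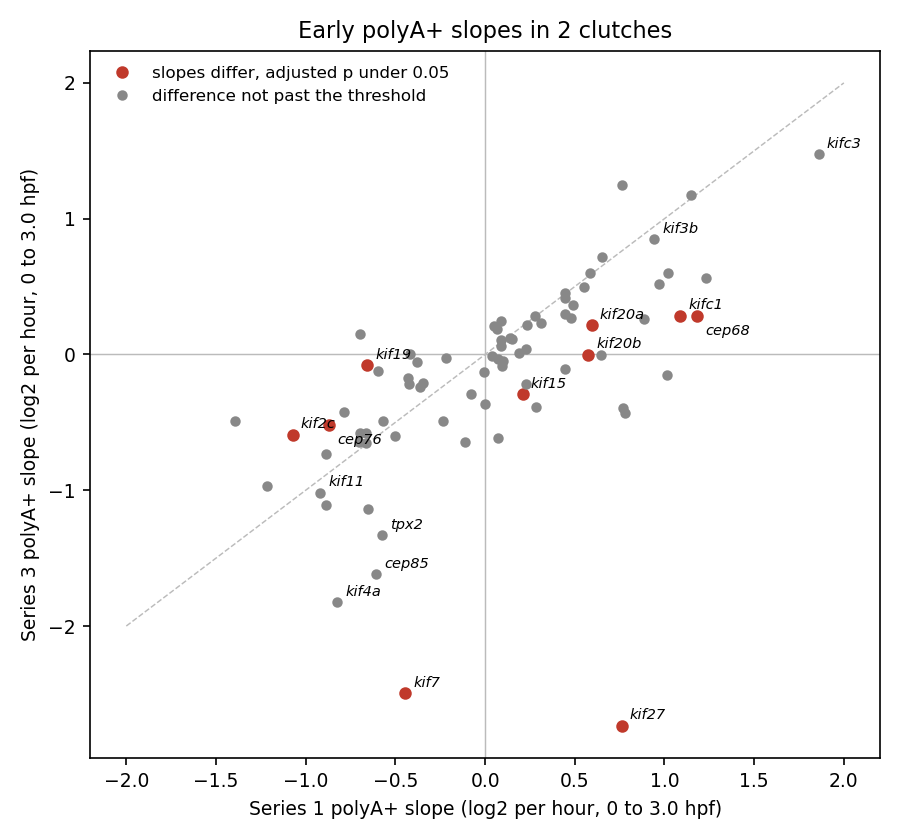
Slope of polyA+ reads over 0 to 3.0 hpf (log2 per hour) in Series 3 (vertical axis) against Series 1 (horizontal axis) for 80 of the 81 members, 1 point each; the dashed line marks equal slopes. The 10 red points are members whose slopes differed between clutches, with *kif27* falling in Series 3, on few counts, and rising in Series 1.

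Ribo-Zero libraries of the same RNA show whether the amount of each message changed over these hours. No change was detectable at this depth. Of 81 members, 0 rose and 0 fell in Ribo-Zero reads from 0 to 3 hpf with edgeR, as did 0% of 11521 genes. At an unadjusted p under 0.05 the count was 0 members and 246 of all genes, and DESeq2 called 0 members and 1 gene. The fit takes 1 spread over polyA+ and Ribo-Zero libraries together, so small changes in Ribo-Zero reads can be missed. Of 75 members with a mean of at least 100 Ribo-Zero reads, 74 (98.7%, against 89.2% of all genes) stayed within 1.5-fold over these 4 libraries. Their median range was 1.14-fold. *kif4a* had 7461, 6150.5, 6107 and 6566 Ribo-Zero reads at 0, 1, 2 and 3 hpf, *tpx2* 4040.3, 4159.8, 4391 and 4536 reads and *kifc3* 2252, 2151, 2170.0 and 1972 reads. None of the 3 followed its polyA+ course.

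The polyA+ slope set against the Ribo-Zero slope in the same RNA separated 30 of the 81 members. The difference in slope was positive in 12 and negative in 18, against 9.5% and 8.27% of all genes, with a median of -0.08 over the members and -0.01 over all genes tested. Of the 13 mitotic kinesins 0 were positive and 5 negative (3 and 5 with library total alone), while 3 of 5 alpha tubulins were positive and 0 negative (1 and 0 with DESeq2 size factors). Centrosomal genes gave 2 positive and 7 negative of 22, and spindle assembly proteins 2 and 4 of 9 (2 and 2 with library total alone). Of the 30 members, 29 had at least 100 Ribo-Zero reads, and the widest range among those was 1.34-fold over 0 to 3 hpf. The Series 3 polyA+ libraries of the whole hours serve both this comparison and the Series 3 slopes above, so the 2 are not independent.

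These calls depend on the fit, with 4 time points per library type. With time point as a block, since each pair of libraries shares its RNA, 0 members and 0 of 11521 genes passed in either direction. At an unadjusted p under 0.05, 16 members were higher and 22 lower, with 3311 of all genes past it. Leaving out 2 hpf or 3 hpf also gave 0 members in either direction, and 0 of 11576 and 0 of 11706 genes. At an unadjusted p under 0.05, 11 members were higher and 20 lower, and 7 higher and 15 lower. Of all genes 2787 and 1897 were past it in these fits. Without 0 hpf 2 members were higher and 8 lower, against 320 and 143 of 11509 genes. Without 1 hpf 21 members were higher and 33 lower, against 2403 and 2603 of 11505 genes. DESeq2 size factors gave 8 higher and 21 lower, and library total alone gave 17 higher and 15 lower. Of 11521 genes these gave 866 and 1026, and 1770 and 572.

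Among members with a negative difference, *kif11* had the smallest adjusted p, 0.00559 with edgeR, at -1.07 ± 0.07 log2 per hour. Its Ribo-Zero level was 16107, 14633, 15387 and 17643 reads at 0 to 3 hpf, highest at 3 hpf, where its polyA+ reads were lowest. The difference was -2.72 ± 0.52 for *kif7*, -1.94 ± 0.42 for *kif4a*, -1.77 ± 0.46 for *cep85*, -1.43 ± 0.38 for *tpx2*, -1.18 ± 0.28 for *kif22* and -1.22 ± 0.14 for *cep63*. Without 0 hpf these fell back to -0.64 for *kif7*, -0.65 for *kif4a*, -0.42 for *cep85*, -0.47 for *tpx2* and -0.52 for *kif22*, none of them past the threshold, while *cep63* stayed past it at -1.02. With all 4 hours, smaller differences were -0.69 for *tacc3*, -0.65 for *incenp* (-0.38 without 0 hpf), -0.64 for *ckap5* and -0.61 for *kif2c*. *kif27* (-2.57) had 15.9, 3.35, 0 and 0 polyA+ reads, against 1188, 1473, 1489 and 1518 Ribo-Zero reads, so its message was abundant in total RNA while polyA+ reads ended at 0 counts. It met the count filter through the Ribo-Zero libraries, where it was high. Its polyA+ reads lay near the floor, so the size of its difference is not a measured slope.

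Positive differences were 1.39 ± 0.14 for *kifc3* (adjusted p = 0.0069), 1.23 ± 0.20 for *kif9*, 0.97 ± 0.20 for *tacc1*, 0.73 ± 0.15 for *prc1* and 0.72 ± 0.15 for *kif3b* (0.43 without 3 hpf). *prc1* had 784, 2080.1, 3118 and 4687 polyA+ reads, against 5260.5, 5307, 5388 and 4997 Ribo-Zero reads, at 0, 1, 2 and 3 hpf. PolyA+ reads of *prc1* were higher at each whole hour than at the one before, while its Ribo-Zero reads stayed level. Core members past no threshold here were *kif20a* (0.21), *kif23* (0.26), *kifc1* (0.23), *kif18a* (-0.06), *kif5b* (-0.22), *ckap2* (-0.31), *numa1* (-0.23), *stmn1* (0.12), *haus1* (-1.66), *tubg1* (-0.72), *tuba1b* (0.14), *tubb* (-0.15) and *cep57* (-0.41).

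Expressed as a ratio of polyA+ to Ribo-Zero reads with 10 added to both, 44 of the 75 members moved over 2-fold between 0 and 3 hpf, 20 up and 24 down, against 29.4% up and 18.1% down over all genes. Over 4-fold falls were seen in 9 members (12%, against 7.9% of all genes), namely *kif7*, *kif4a*, *cep85*, *tpx2*, *kif22*, *cep63*, *haus2*, *kif11* and *cep135*. That of *haus2* rests on 0 polyA+ counts at 3.0 hpf, after 21 and 19 counts at 2.0 and 2.5 hpf. Its difference in slope was -1.04 ± 0.74, not past the threshold. Rises over 4-fold came in 8 (10.7%, against 9.83%), namely *kifc3*, *kif9*, *prc1*, *cep164*, *kif3b*, *tuba4b*, *tacc1* and *tuba4a*. These are single libraries at each hour, given as values with no test. The ratio of *kif4a* was 0.0123 at 3 hpf and 0.590 at 0 hpf, and that of *kifc3* 0.207 at 3 hpf and 0.0134 at 0 hpf. Among the 44, the ratio at 3 hpf was lowest for *kif27* and highest for *tuba8*. That of *kif27*, 0.00654, rests on 0 polyA+ counts and the added 10 reads, and cannot be told apart from that of *kif7*, 0.00667. Because polyA+ and Ribo-Zero reads have separate totals a ratio of 1 has no meaning of its own.

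**Figure D3:**
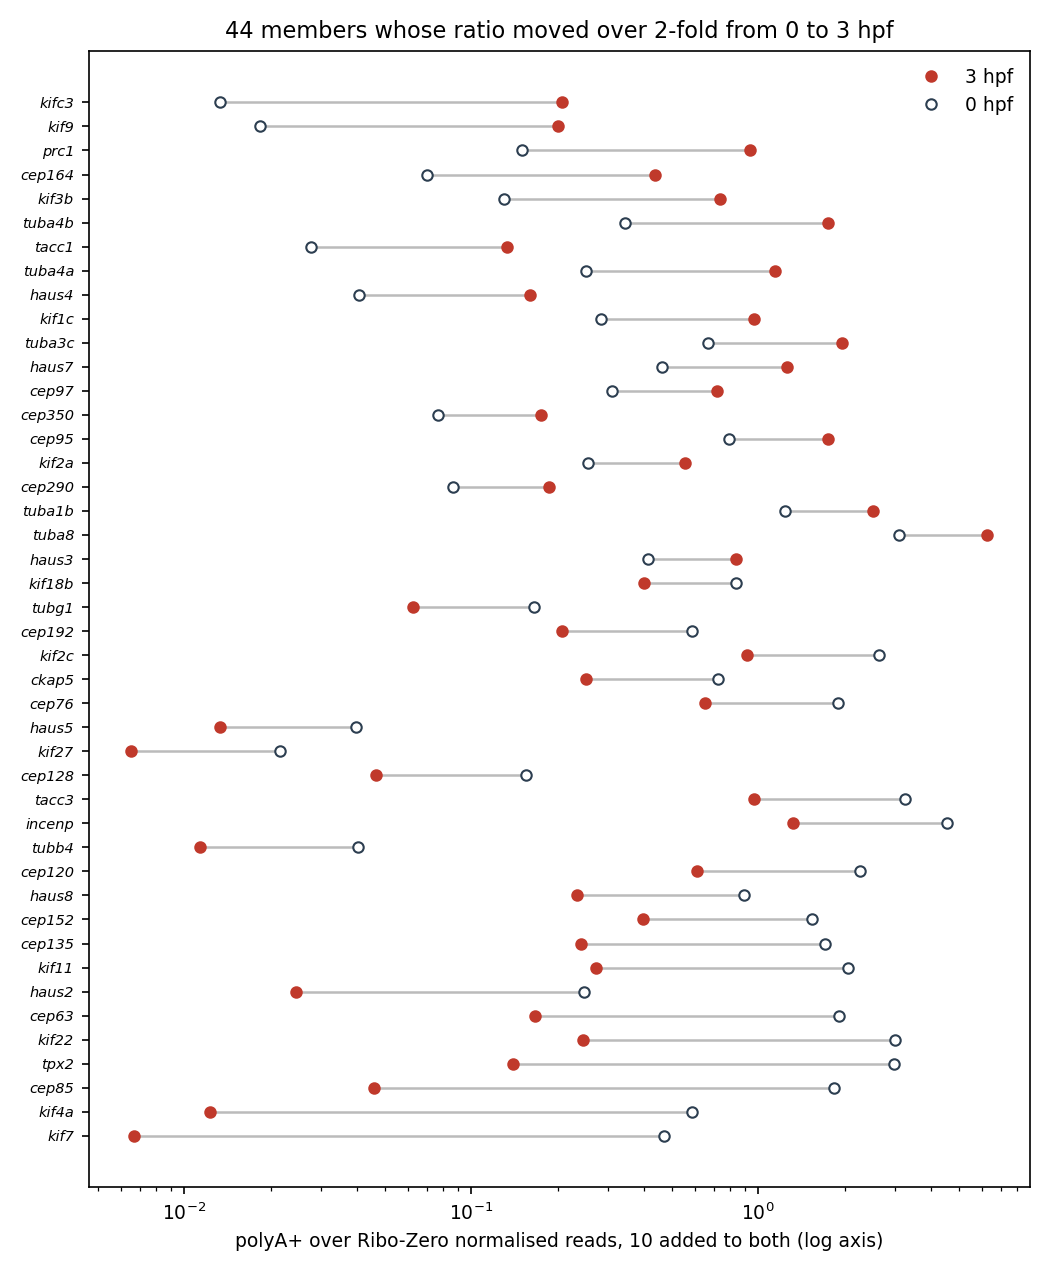
Ratio of polyA+ to Ribo-Zero normalised reads in Series 3, 10 added to both (log axis), at 3 hpf (red) and at 0 hpf (open) for the 44 members that moved over 2-fold, 1 library of each type per time. *kifc3* moved up most, to 0.207 at 3 hpf against 0.0134 at 0 hpf, and *kif7* at the bottom moved down most.

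At 8 hpf the ratio was below 0.1 in 19 of 75 members (25.3%, against 15.1% of all genes). Of these, 8 were below 0.1 at 0 hpf too, and 11 were not, *tpx2*, *cep63*, *cep85*, *kif4a* and *kif7* among them. PolyA+ reads of *numa1* over 19 libraries were 74.5 at the lowest, 401 at the median and 857 at the highest, against Ribo-Zero reads over 9 libraries of 10442 at the lowest, 13261 at the median and 15606 at the highest. The 2 ranges are far apart. In Series 2 polyA+ libraries *numa1* had 4732 to 12248 reads, a level that its Series 3 polyA+ libraries never reached. *haus5* was alike, at 4.80 to 181 polyA+ reads, against 4117 to 4706 Ribo-Zero reads, and 611 to 5538 reads in Series 2. *kif24*, a depolymerising kinesin of the centriole, had 0 to 251 polyA+ reads, against 3196 to 3982 Ribo-Zero reads, and 969 to 3189.9 in Series 2. *tubb4*, a beta tubulin, had 4.44 to 199.9 polyA+ reads, against 3153 to 3981 Ribo-Zero reads, and 1445 to 4236 in Series 2. Clutch and library kit change together here, and their parts were not tested.

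From 5 to 8 hpf, hours in which *t* and other genes of the embryo's own genome came on in Series 3, the polyA+ and Ribo-Zero slopes were compared again. Few members parted: of 79 tested, 7 had a higher polyA+ slope and 2 a lower one (3.83% and 1.65% of 11382 genes), with a median of 0.03 over the members and 0.03 over all genes. *kifc1* had 4006, 4671, 4914 and 5231 polyA+ reads, against 10958, 9821, 8263 and 7119 Ribo-Zero reads, at 5, 6, 7 and 8 hpf. Its polyA+ reads edged up while its Ribo-Zero reads went down over these libraries, with a difference in slope of 0.47 ± 0.07 (adjusted p = 0.0155). The Ribo-Zero slope of *kifc1* by itself was -0.19 ± 0.05 and not past the threshold (adjusted p = 0.105, edgeR). The difference was also positive for *kif20a* (0.44 ± 0.11), for *haus5* (0.78 ± 0.12), which had few polyA+ reads, and for *tubb2c*, a beta tubulin with 5988, 6156, 6566 and 6185 Ribo-Zero reads (0.53 ± 0.12). *cep290*, of the ciliary transition zone, is also counted at 4.00 ± 0.77, but this rests on 5 polyA+ counts in the library at 8 hpf. *kifap3*, the non-motor subunit of kinesin-2, had 5556, 6269, 2513 and 1001 polyA+ reads, against 4004, 3682, 3929 and 3683 Ribo-Zero reads, and a difference of -0.71 ± 0.16 (adjusted p = 0.0411), which was -1.07 without 5 hpf. Its total RNA stayed level while its polyA+ reads fell over 5-fold, and *cep78*, a protein that regulates centrosomal kinases, differed by -0.35 ± 0.07.

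With time point as a block these counts were 10 higher and 2 lower, against 647 and 339 of 11382 genes. They were 0 and 0 with library total alone, against 105 and 107 of all genes. At an unadjusted p under 0.05 that scaling had 10 members higher and 12 lower, with 2623 of all genes past it. With that scaling the median of all genes was -0.11, against 0.03 in the fit above. Leaving out 5 hpf gave 0 higher and 1 lower, against 68 and 26 of 11494 genes. Leaving out 6, 7 or 8 hpf gave 0 members in either direction. Over all genes those fits gave 0 and 0, 0 and 0, and 1 and 0. At an unadjusted p under 0.05 they had 18 members higher and 3 lower, 17 and 6, and 11 and 7. Of all genes 2253, 2477 and 1729 were past it. Ribo-Zero reads alone over 5 to 8 hpf rose in 0 members and fell in 1, against 1.85% and 0.158% of all genes. At an unadjusted p under 0.05 there were 2 rises and 6 falls, with 1715 of 11382 genes past it. DESeq2 gave 1 rise and 1 fall, against 532 and 63 of all genes. The member that fell was *kif3a*, the partner of *kif3b* in kinesin-2, with 5544, 4653, 3296 and 2950.1 reads and a slope of -0.31 ± 0.06 (adjusted p = 0.0416). It did not pass with DESeq2 size factors, with library total alone or without any 1 of the 4 time points.

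Total RNA of late embryos (5 to 8 hpf) was then compared with that of early embryos (0 to 3 hpf), 4 Ribo-Zero libraries each. Of 13 mitotic kinesins 6 rose and 1 fell, of 22 centrosomal genes 8 rose and 0 fell, and of 9 spindle assembly proteins 3 rose and 0 fell, while the others did not pass (with library total alone, 5 mitotic kinesins and 3 centrosomal genes rose). In all 19 of 81 members rose and 4 fell, against 5.1% and 5.02% of 11516 genes, with a median of 0.12 over the members and -0.01 over all genes tested. *kif11* had 22888, 21769, 23792 and 20456 Ribo-Zero reads at 5 to 8 hpf, against 16107, 14633, 15387 and 17643 reads at 0 to 3 hpf. The groups did not overlap, and the difference was 0.58 ± 0.08 (log2, adjusted p = 0.0267). *kif2c* (0.56 ± 0.10), *kif22* (0.49 ± 0.11), *tacc3* (0.47 ± 0.07), *kif4a* (0.42 ± 0.07), *incenp* (0.42 ± 0.09), *cep63* (0.42 ± 0.07) and *ckap5* (0.31 ± 0.07) were higher as well. These named genes are ones whose polyA+ reads fell over 0 to 3 hpf in Series 3, but not all members that rose in total RNA were. The Series 3 polyA+ slopes of *cep95* and *cep112* were 0.21 and -0.12, not past the threshold. A link between early polyA+ loss and later total RNA was not tested. *cep95* rose by 0.56, and *cep112* by 1.40 on low levels of 78.3, 45.8, 51.9 and 90.8 reads at 5 to 8 hpf, against 36.8, 13.7, 29.8 and 25.6 reads at 0 to 3 hpf.

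Falls in total RNA were small. *haus4*, an augmin subunit, had 1723, 1559, 1219.7 and 1186 reads at 5 to 8 hpf, against 2109.6, 1916, 2048 and 1888 reads at 0 to 3 hpf (-0.38 ± 0.10). *haus2*, also of augmin, changed by -0.63 ± 0.16, *tuba4a* by -0.36 ± 0.08 and *kif18a* by -0.28 ± 0.08. Core members past no threshold ran between -1.01 (*haus1*) and 0.34 (*numa1*). Each of these calls is tied to the number of libraries: without 0, 1, 2 or 7 hpf, 0 members passed in either direction. In those fits 0 of 11354, 11329, 11409 and 11472 genes passed. At an unadjusted p under 0.05 they had 28 or 29 members higher and 6 to 8 lower, with 2785 to 3198 of all genes past it. Without 3 hpf there were 12 higher and 1 lower, without 8 hpf 15 and 2, without 5 hpf 19 and 7, and without 6 hpf 21 and 3. Over all genes these fits gave 257 and 414, 397 and 483, 1001 and 904, and 859 and 725, of 11359 to 11468 tested. DESeq2 called 26 higher and 4 lower, and library total alone gave 11 higher and 6 lower. Of 11516 genes these called 1241 and 1004, and 304 and 858.

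The widest changes came between cleavage and early gastrula in Series 2, where 4 polyA+ libraries of 8.0 to 9.5 hpf were set against 4 of 2.5 to 4.0 hpf. Alpha and beta tubulin messages rose and those of augmin, the centrosome and most spindle motors fell. Of 90 members tested 21 were higher and 55 lower in gastrulae, against 36.8% and 35.2% of 13539 genes. The median change was -0.90 over the members and 0.03 over all genes tested. By group, 6 of 7 alpha tubulins and 5 of 6 beta tubulins rose and none fell, all 8 augmin subunits fell, and 19 of 23 centrosomal genes fell with 1 rise. Of the 13 mitotic kinesins 10 fell and 1 rose, other kinesins gave 5 rises and 12 falls of 22, and spindle assembly proteins 3 rises and 5 falls of 10. Among the rises, *tuba1a*, *tuba3e*, *kif21b*, *cep19* and *tacc2* reached 10 counts in gastrula libraries only. They entered the test through those libraries, so only a rise could be called for them. *cep290* reached 10 counts at cleavage only, so only a fall could be called for it. With library total alone, DESeq2 size factors, no filter or DESeq2, rises in alpha tubulins were 6 or 7 and in beta tubulins 4 or 5 with 0 falls, augmin falls stayed at 8, and centrosomal falls were 18 to 20. Leaving out 1 time point gave 16 to 21 rises and 47 to 55 falls, with 1 alpha tubulin falling without 2.5 or 8.0 hpf. Over all genes those fits gave 3766 to 5004 rises and 4069 to 4796 falls, of 12367 to 13314 tested. The median of all genes was -0.19 with library total alone, 0.12 with DESeq2 size factors and 0.35 with no filter, against 0.03 in the fit above.

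**Figure D4:**
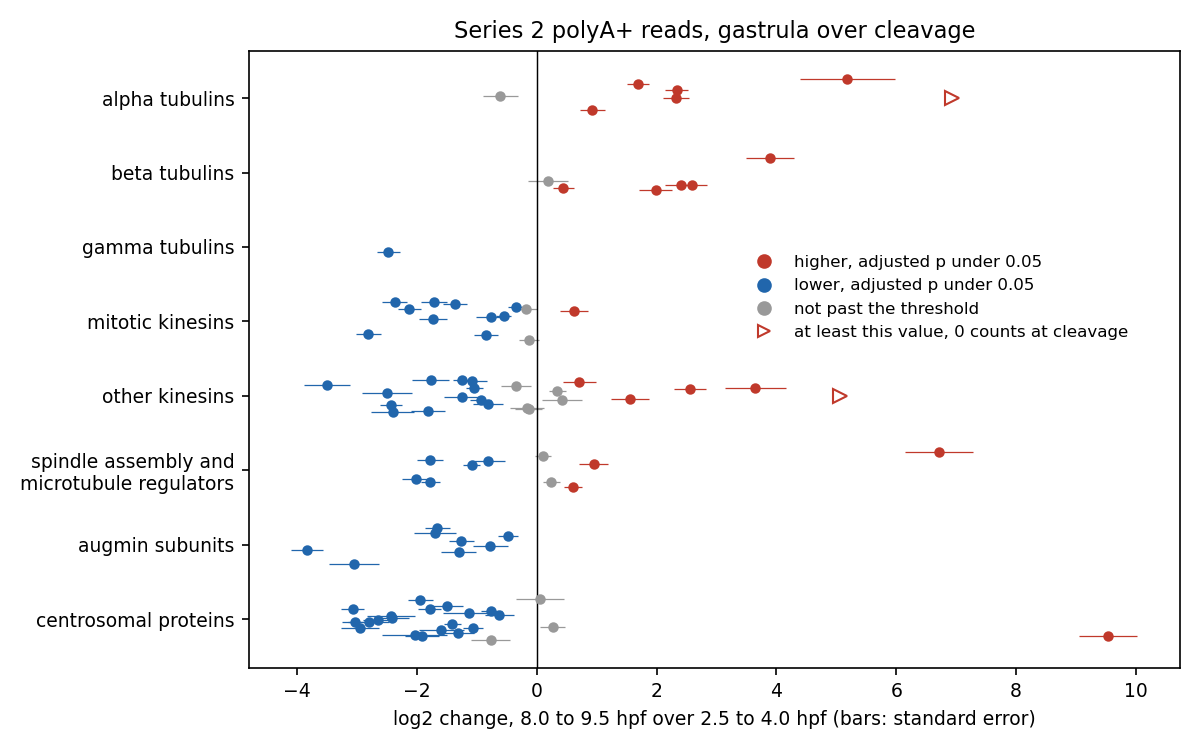
Log2 change of Series 2 polyA+ reads, 8.0 to 9.5 hpf over 2.5 to 4.0 hpf, for 90 members by group (1 point each, bars are standard errors); open triangles are lower bounds for *tuba1a* and *kif21b*, which had 0 counts at cleavage. All but 1 alpha tubulin and all beta tubulins lie to the right of 0, and gamma tubulin, augmin and most centrosomal proteins to the left.

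Summed over its members, the alpha tubulin group had 39260 to 50997 normalised reads in gastrulae, against 21044 to 24141 at cleavage. Beta tubulins had 21394 to 38635 reads in gastrulae, against 8618 to 10994 at cleavage. Neither pair of ranges overlapped. *tubb* had 13417, 21669, 23239 and 26358 reads at 8.0, 8.5, 9.0 and 9.5 hpf, against 7518, 6817, 6081 and 4696 reads at 2.5, 3.0, 3.5 and 4.0 hpf (1.99 ± 0.28, adjusted p = 9.53e-05, edgeR). *tuba1b* had 2272, 3182, 3295 and 3853 reads in gastrulae, against 706, 764, 775 and 731 reads at cleavage (2.32 ± 0.22, adjusted p = 6.52e-06). Both climbed through the gastrula libraries, and all 4 lay above all 4 cleavage libraries. *tuba3e* had 31.1, 59.6, 91.3 and 214 reads in gastrulae, against 2.44, 2.35, 7.75 and 0.776 reads at cleavage (5.18 ± 0.79). *tuba1a* had 26.2, 116, 351 and 919 reads in gastrulae, which was 1527 counts, against 0 counts in all 4 cleavage libraries. With 3 counts allowed in the shallowest cleavage library, it was at least 121.5-fold higher in gastrulae. Reads that matched more than 1 gene were discarded before counting, so levels of near-identical tubulin genes are uncertain, *tubb2b* and *tubb2c* among them.

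Some kinesins and regulators were higher in gastrulae too. *kif21b*, a kinesin known from neurons, had 55.4, 89.4, 115 and 129 reads in gastrulae, or 406 counts, against 0 counts at cleavage, and was at least 33.4-fold higher. *cep19*, a ciliary protein of the centriole, had 4617 counts in gastrulae, against 8 at cleavage, a ratio of 673 per read sequenced (95% exact interval 341 to 1560, counting error only). *tacc2*, a relative of *tacc3*, had 274 counts in gastrulae, against 3 at cleavage, a ratio of 107 (interval 36.1 to 519.8). All 3 were near 0 at cleavage and read in every gastrula library. They met the count filter through the gastrula libraries alone. *kifc1* (0.62 ± 0.24) and *ckap2* (0.61 ± 0.15) rose less. The call of *kifc1* was lost without 2.5, 3.0, 3.5, 8.5 or 9.5 hpf, at 0.48 to 0.65, and with library total alone (0.37), as was that of *ckap2* (0.38).

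Augmin as a group had 2939 to 7418 reads in gastrulae, against 13782 to 21996 at cleavage, and centrosomal proteins had 16920 to 25407 reads in gastrulae, against 67566 to 82377 at cleavage. *haus8*, the augmin subunit that binds microtubules, had 248, 126, 108 and 94.9 reads in gastrulae, against 2294, 2299, 2252 and 2491 reads at cleavage (-3.84 ± 0.26, adjusted p = 7.54e-07). *haus6* had 1352, 355, 383 and 330.5 reads in gastrulae, against 4171, 4974, 5214 and 8148 reads at cleavage (-3.05 ± 0.42). Both were below every cleavage library at 8.0 hpf and lower still at 8.5 hpf. *haus1* changed by -1.31 ± 0.29 at low levels of 15.5, 13.2, 15.4 and 11 reads in gastrulae, against 35.0, 27.4, 38.7 and 59.0 reads at cleavage. *cep63* had 112, 91.6, 75 and 96.8 reads in gastrulae, against 992, 723, 728 and 1112 reads at cleavage (-3.03 ± 0.22). *cep76*, which limits centriole reduplication, changed by -3.07 ± 0.19, and *kif13a*, an endosomal kinesin, by -3.50 ± 0.38. The gamma tubulin gene *tubg1* had 368, 217, 214 and 231 reads in gastrulae, against 1674, 1700.5, 1765 and 1426 reads at cleavage (-2.48 ± 0.20), opposite to the alpha and beta tubulins.

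Mitotic kinesins had 36635 to 52200 summed reads in gastrulae, against 81738 to 97917 at cleavage. *kif18a* had 1539, 748, 748 and 1001 reads in gastrulae, against 7958, 8398, 8217 and 7919 reads at cleavage (-2.81 ± 0.21). *kif11* had 1662, 2064, 2026 and 2431 reads in gastrulae, against 9578, 6365, 6089 and 9914 reads at cleavage (-1.73 ± 0.23). In between, *kif11* stood at 11403 to 12452 reads at 4.5 to 5.5 hpf, above every cleavage library of the series. *kif2c* (-2.38 ± 0.21), *kif4a* (-2.13 ± 0.19) and *kif22* (-1.71 ± 0.21) fell too. *kif23* changed by -0.55 ± 0.13 and *kif20a* by -0.35 ± 0.13, both less than *kif4a*, which also works at the midzone. The call of *kif20a* was lost without 3.0, 3.5, 8.0, 8.5, 9.0 or 9.5 hpf, at -0.38 to -0.21.

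Among the regulators, *ckap5* (-1.78 ± 0.16), *tacc3* (-1.78 ± 0.22), *incenp* (-1.09 ± 0.15) and *kif5b* (-1.24 ± 0.16) fell. *stmn1* had 74.8, 69.5, 65.1 and 72.1 reads in gastrulae, against 353, 317, 231 and 436 reads at cleavage (-2.02 ± 0.23). Its repeated libraries at 4.5 and 6.5 hpf, which are not in this comparison, were the farthest apart of all members. *tpx2* had 10192, 7317, 4361 and 3329 reads in gastrulae, against 15029, 12256, 12788 and 9755 reads at cleavage (-0.81 ± 0.29), ranges that overlap. Its call was lost without 2.5, 9.0 or 9.5 hpf, at -0.70 to -0.54. Values past no threshold were 0.10 ± 0.13 for *prc1*, 0.24 ± 0.14 for *numa1* and 0.27 ± 0.21 for *cep57*.

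**Figure D5:**
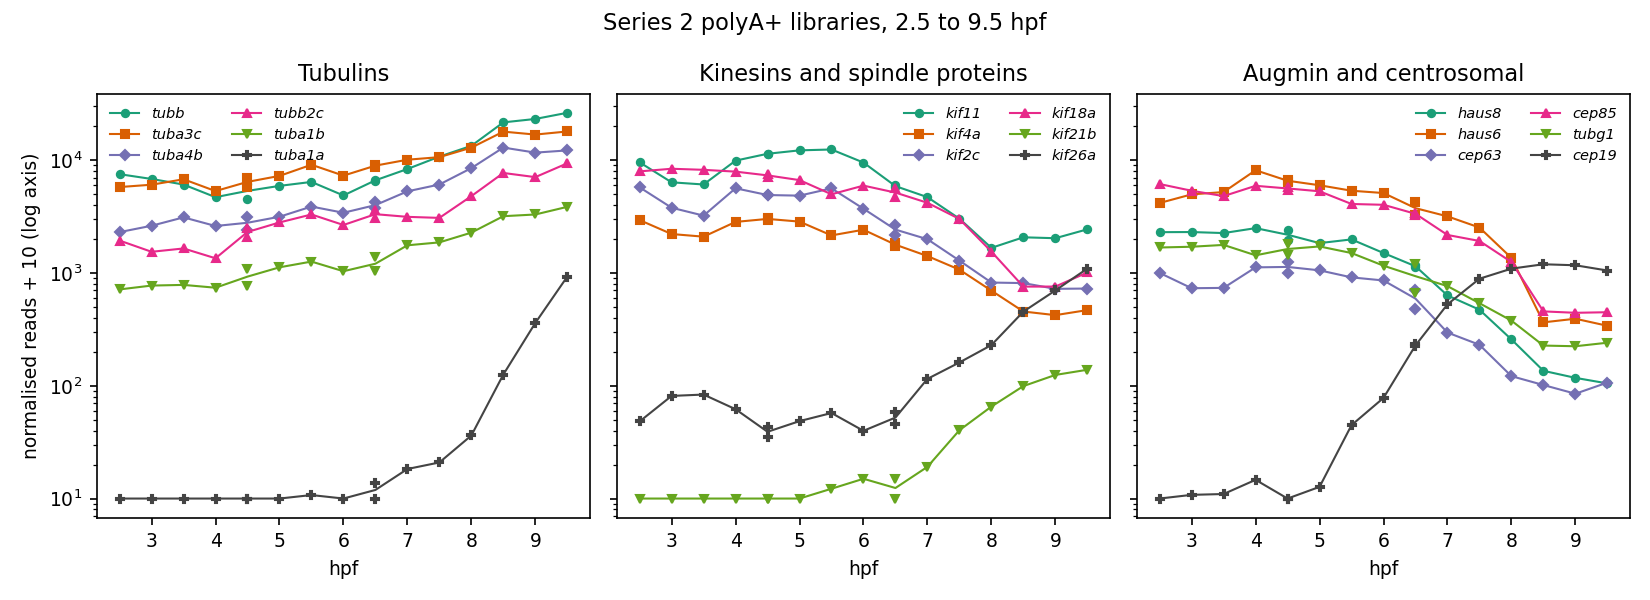
Normalised reads plus 10 (log axis) by hpf in Series 2 polyA+ libraries for 6 tubulins (left), 6 kinesins (middle) and 6 augmin, gamma tubulin or centrosomal genes (right). Points are single libraries, with 2 each at 4.5 and 6.5 hpf, and lines join their means. The 6 tubulins were highest at 8.5 to 9.5 hpf, *kif21b*, *kif26a* and *cep19* rose, and the other kinesins and centrosomal genes fell.

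Over the 17 libraries of Series 2 the time of the highest level was counted by group. Of 84 members with a peak of at least 100 reads, 19 peaked at 2.5 to 3.0 hpf, 29 at 3.5 to 5.0 hpf, 18 at 5.5 to 7.0 hpf and 18 at 7.5 to 9.5 hpf. In the last of these windows peaked 6 of 7 alpha tubulins and 4 of 5 beta tubulins, as did 0 of 13 mitotic kinesins and 0 of 7 augmin subunits. Among these, *tuba1a*, *tuba3e* and *kif21b* reached 100 reads in gastrula libraries only, so they could peak nowhere else. The last window holds the gastrula libraries of the comparison above, so these counts add no separate support to it. They are descriptions, with no test, and peaks were not counted over all genes.

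Sustained steep changes were sought by a run rule, which asks for at least 3 successive points that each move by more than a chance step and for a fold of at least 10 in all, after adding 10 to each level. With the chance step as the study prints it, 2 members had a rising run and 0 a falling one, against 2.68% and 0.00886% of 22571 genes. *tuba1a* rose 25.6-fold from 8.0 hpf in Series 2. *cep19* rose 129-fold from 6.0 hpf in Series 3, where its polyA+ reads were 0, 19.1, 78.3, 188, 474, 1277 and 1166 at 6.0 to 9.0 hpf, against 0 to 20.3 Ribo-Zero reads up to 6.0 hpf and 15.6 and 207 at 7.0 and 8.0 hpf. Its polyA+ and total RNA rose together, unlike those of *kifc3* or *prc1* after fertilisation.

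With a smaller chance step, in which the sign of its constant is turned round, 10 members had a rising run and 12 a falling one (7.71% and 4.27% of all genes). Rises from 0.5 hpf in Series 1 were 52.9-fold for *kifc3*, 16.1-fold for *kifc1*, 14.5-fold for *cep68*, 13.2-fold for *kif9*, 11.8-fold for *kif24*, 11.3-fold for *cep164*, a protein of centriolar appendages, and 10.8-fold for *kif3b*. In Series 3 *kifc3* (18.1-fold) and *kif3b* (10.8-fold) had rising runs as well. Later rises in Series 2 were 94.2-fold for *cep19* from 5.0 hpf, 44.5-fold for *tuba1a* from 7.5 hpf and 21-fold for *kif26a*, a kinesin that does not move, from 6.5 hpf. Falls from 0 hpf in Series 3 were 44.6-fold for *kif4a*, 32.4-fold for *tpx2*, 16.6-fold for *kif22*, 14.5-fold for *kif11* and 12.6-fold for *haus8*. All but that of *kif11* ended at the low library of 1.5 hpf. Falls in Series 2 began at 4.0 hpf for *haus6* (22.3-fold) and *cep152* (15.4-fold), which founds new centrioles with *cep63*, at 4.5 hpf for *cep164* (12.5-fold), at 5.0 hpf for *cep76* (11.6-fold), at 5.5 hpf for *haus8* (14.6-fold), at 6.0 hpf for *cep128* (13.1-fold), a protein of centriolar appendages, and at 6.5 hpf for *kif13a* (12-fold). The 26.9-fold run of *cep68* in Series 3 ended in the library at 8.0 hpf, where it had 0 counts, with 44.4 and 77.2 reads after it.

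Other genes of the pathway, a list of 43 kinases, microtubule-binding proteins, gamma tubulin complex subunits and tubulin chaperones, were described in the same fits. In Series 2, 6 rose and 31 fell in gastrulae, against 36.8% and 35.2% of all genes. The falls included *birc5.1*, survivin of the passenger complex (-3.91 ± 0.43), and *pcnt*, which holds gamma tubulin at the centrosome (-3.53 ± 0.23). Another survivin entry, *birc5.2*, went the other way. It had 2596, 3664, 3131 and 2766 reads in gastrulae, against 2404, 2255, 1836 and 1709 reads at cleavage. The rises included *plk4*, the kinase of centriole duplication (1.57 ± 0.20), and *tbca* (1.37 ± 0.38) and *tbcd* (1.59 ± 0.25), chaperones that fold beta tubulin and join it to alpha tubulin. Among the other tubulin chaperones of the list, *tbce* (-2.13 ± 0.34) and *tbcc* (-1.44 ± 0.33) fell and *tbcb* was at 0.28 ± 0.13, not past the threshold. Over 0 to 3.0 hpf 3 rose and 23 fell in Series 3 polyA+ reads (18.6% and 20.9% of all genes), and 10 rose and 18 fell in Series 1 (24.6% and 26.7%). *aurka*, the kinase that *tpx2* activates, had 16668, 1225, 872, 346, 1004, 463 and 409 polyA+ reads in Series 3, against 10945, 9238, 9259 and 10473 Ribo-Zero reads at 0, 1, 2 and 3 hpf. It dropped in the first 0.5 h as *tpx2* did, with total RNA nearly level. *racgap1*, the partner of *kif23* in the midzone complex, had 990.3, 1408, 4417, 5897, 8473, 10852 and 11150.1 polyA+ reads, against 10072, 11283, 11202 and 11753 Ribo-Zero reads, and rose with it. The polyA+ slope set against Ribo-Zero was positive in 1 and negative in 15 of the 43 over 0 to 3 hpf, against 9.5% and 8.27% of all genes.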

How the data were processed

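Read counts per gene were deposited for all 52 libraries. The authors aligned reads with Bowtie 0.12.7 to a set of transcript models, allowing at most 3 mismatches, and discarded reads that matched more than 1 gene. Whether counting used strand is not given in the sources used here, so overlapping genes are uncertain. The deposited normalised values, a signal scaled by the authors to 25000000 reads, were used only as an alternative for the run rule. Here counts were divided by the library total without the ribosomal entry, whose share was 4.31 to 35.0% in Ribo-Zero libraries. Entries that name no gene made up at most 0.415% of the other reads and were left out of the tests.

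Counts were tested with the quasi-likelihood F test of edgeR 4.0.16 (R 4.3.3) with TMM scaling, over all genes that reached 10 counts in 50% or more of a fit's libraries, and p-values were adjusted by Benjamini-Hochberg over those genes at a threshold of 0.05. Standard errors were derived from the log2 change and its F value. Slopes were straight lines in hpf, with an interaction for library type or series. Alternatives were DESeq2 size factors, library total alone, no filter on low counts, the test of DESeq2 1.42.0, time point as a block and leaving out each time point. Ratios used 10 added reads. Tables and plots were made with Python 3.11.15, numpy 2.4.6, pandas 2.3.3 and matplotlib 3.10.9.

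PolyA+ and Ribo-Zero libraries of a time point were paired by design, as the RNA of each pool was split. Their deviations at the same time correlated at 0.0415 to 0.0632 over 0 to 3 hpf and at 0.507 to 0.706 over 5 to 8 hpf, across genes. Between unlike times the correlations were -0.0892 to 0.0403 and -0.651 to 0.537. Deviations were taken from the mean of each library type, so a shared course over time enters these values. Tested on simulated data with 200 changed genes, the fit recovered 106 for the early and 85 for the late difference between library types. It recovered 200 for total RNA, 148 for Series 2 and 77 for the difference between clutches. Other genes called were 2, 2, 12, 11 and 3, in that order. Changes were simulated only in genes above a set mean count, with the same spread for all genes. Every member's change called in total RNA, but that of *cep112*, was smaller than any simulated for that fit. The 200 recovered therefore do not show how often changes of that size are found. Named genes were the 5 members with the largest change past the threshold in each direction of each comparison, every member with a run, and a list of core members. Members and lists were chosen with earlier results of these data known. Among the core members, *cep55* was not analysed here. The values of 1 other member enter the counts but are not reported here. Symbols of 93 members matched RefSeq and 3 matched a synonym.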

Additional observations from a re-analysis of the deposited data

Results flagged for a closer look

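Between the clutches, the slope of polyA+ reads over 0 to 3.0 hpf differed by the test of the difference itself (edgeR, adjusted p under 0.05) in 11 members, of which 10 are given here. The difference, Series 3 minus Series 1 in log2 per hour, was -3.49 for *kif27*, -2.05 for *kif7*, -0.90 for *cep68*, -0.80 for *kifc1*, -0.58 for *kif20b*, -0.50 for *kif15* and -0.38 for *kif20a*. It was 0.35 for *cep76*, 0.48 for *kif2c* and 0.58 for *kif19*. Under 11 alternatives *kif27*, *kifc1* and *kif20b* passed in 11, *kif7* in 7, *kif15* and *kif20a* in 6 each, *cep68* in 5, *cep76* in 4, *kif2c* in 2 and *kif19* in 1. *kif27* met the count filter through Series 1, where it was high, and lay near the floor in Series 3. The series differ in female, colony, pool size, kit and sequencer, and these cannot be told apart.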

How the results depend on the processing

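Of 29 named members tested between gastrula and cleavage in Series 2, 25 kept their call under every alternative in which they were tested. These were 12 alternatives, but 8 for *tuba1a*, *tuba3e*, *cep19*, *kif21b* and *tacc2*, which met the count filter through the gastrula libraries alone. Every call was also kept by 17 of 20 for the Series 1 slope and 16 of 23 for the Series 3 slope. For the difference between clutches 2 of 8 kept it (11 alternatives for each of these 3 comparisons). For both comparisons of polyA+ with Ribo-Zero and for total RNA, 0 did so. With time point as a block for the paired libraries, 0 members were higher and 0 lower over 0 to 3 hpf, and 10 higher and 2 lower over 5 to 8 hpf. Over all genes that gave 0 and 0 of 11521, and 647 and 339 of 11382. Library total alone gave 0 higher and 0 lower over 5 to 8 hpf, 11 higher members in total RNA, 41 rises and 15 falls in Series 1, and 0 higher between clutches. Over all genes it gave 105 and 107 of 11382, 304 of 11516, 4254 and 1125 of 11227, and 72 of 11227. No filter gave 1 lower over 5 to 8 hpf and 0 higher between clutches, where DESeq2 size factors gave 1 higher and DESeq2 13 lower. Over all genes these gave 185 of 18816, 199 of 17106, and 228 and 776 of 11227. The late Ribo-Zero slope had 1 rise by DESeq2, and 0 falls with DESeq2 size factors and 0 with library total alone. Of 11382 genes these gave 532, 11 and 5. The smaller chance step gave 10 rising and 12 falling runs (7.71% and 4.27% of all genes). A run fold of 5 gave 3 rising and was not run over all genes.

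Leaving out 1 time point gave 0 to 21 higher and 0 to 33 lower for the early difference, 0 and 0 for the early Ribo-Zero slope, 0 and 0 to 1 for the late difference, 0 and 0 for the late Ribo-Zero slope, 0 to 21 and 0 to 7 for total RNA, 16 to 21 and 47 to 55 in Series 2, 22 to 30 and 16 to 26 in Series 1, 11 to 15 and 21 to 29 in Series 3, and 0 to 2 and 4 to 8 between clutches. Over all genes these fits gave 2372 to 2914 rises and 1998 to 3414 falls in Series 1. In Series 3 they gave 1363 to 2130 rises and 1602 to 2613 falls, of 11198 to 11324 genes tested in both. For the late Ribo-Zero slope they gave 18 to 121 rises and 0 falls, of 11356 to 11521. In the fits of the early difference and of total RNA where leaving out a time point gave 0 members, 0 genes passed. The cause was not tested for any of these. Series 3 libraries were the shallowest, so low members were least certain there.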
